A study of Homo sapiens with 12 samples.

Results

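The genes described here are 10 named components of the nuclear lamina and of chromatin: the lamins LMNB1, LMNB2 and LMNA, the inner nuclear membrane proteins LBR, TMPO and EMD, the SUN-domain proteins SUN1 and SUN2, and the chromatin proteins HMGB1 and HMGB2. They were chosen by name, are 10 of the 58735 genes in the count table, and all 10 were among the 16891 genes with enough counts to be tested. RNA-seq was carried out on FDX2-iKO ES2 cells, an ovarian cancer line in which the endogenous FDX2 gene was knocked out with Cas9 protein and a guide RNA and an HA-tagged FDX2 that resists editing is expressed from a TRE promoter as long as Doxy (doxycycline) is present. FDX2 is a mitochondrial ferredoxin that passes electrons to iron-sulfur cluster assembly. The conditions were 20% O2 + Doxy and 20% O2 wo Doxy, each cultured for 6 days, and 3% O2 + Doxy and 3% O2 wo Doxy, kept for 4 days at 20% O2 and then 3 days at 3% O2, with 3 libraries per condition. All 4 conditions carry the edited FDX2 gene and the lentiviral Tet-On and TRE cassettes, so that only Doxy separates FDX2-expressing from FDX2-deficient cells. An effect of Doxy itself cannot be told apart from that of FDX2, nor the days in culture from oxygen. The cells are those of clone 1 where nothing else is stated, and the libraries of a condition are described as biological replicates, so that p-values measure the spread between replicates of a clone.

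Lamins are intermediate filament proteins that form a meshwork under the inner nuclear membrane. B-type lamins (LMNB1 and LMNB2) stay attached to the membrane through a lipid anchor, whereas A-type lamins come from LMNA. LBR, TMPO and EMD tie lamins and chromatin to the membrane, and SUN1 and SUN2 link the lamina to the cytoskeleton through nesprins in the LINC complex. HMGB1 and HMGB2 bind and bend DNA, and HMGB1 released from cells is a danger signal. Low LMNB1 and loss of nuclear HMGB proteins are widely used marks of senescent cells, and several of these genes are made mostly in dividing cells.

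Many genes of the cell cycle carry short promoter elements, among them the CHR (cell cycle genes homology region), the CCAAT box and E2F sites. Promoter windows from RefSeq (GRCh38.p14, from 250 bases before to 50 bases after a start site) matched 8 of the 10 genes by symbol, all but HMGB2 and SUN1, with 16 windows. The windows of 3 genes whose response to FDX2 loss differed between oxygen levels (LMNB1, TMPO and LBR) and of EMD, which was called in no comparison, are printed here 5′ to 3′ in the direction of the gene, with matches to TTTGAA or TTTAAA or CCAAT on either strand in capitals.
LMNB1, chr5:126776373-126776672, plus strand: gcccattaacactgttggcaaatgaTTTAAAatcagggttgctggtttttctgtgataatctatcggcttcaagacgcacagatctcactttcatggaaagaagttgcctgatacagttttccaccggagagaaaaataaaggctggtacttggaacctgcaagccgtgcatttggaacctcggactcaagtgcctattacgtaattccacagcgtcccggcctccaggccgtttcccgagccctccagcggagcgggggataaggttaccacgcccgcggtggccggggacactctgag
TMPO, chr12:98515323-98515622, plus strand: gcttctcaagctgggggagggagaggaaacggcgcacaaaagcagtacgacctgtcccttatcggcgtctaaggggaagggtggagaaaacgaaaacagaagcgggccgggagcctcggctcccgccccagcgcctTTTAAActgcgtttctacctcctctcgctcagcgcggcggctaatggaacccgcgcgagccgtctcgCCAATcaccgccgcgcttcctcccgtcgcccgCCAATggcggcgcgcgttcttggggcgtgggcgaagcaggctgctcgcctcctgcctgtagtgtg
LBR, chr1:225428772-225429071, minus strand: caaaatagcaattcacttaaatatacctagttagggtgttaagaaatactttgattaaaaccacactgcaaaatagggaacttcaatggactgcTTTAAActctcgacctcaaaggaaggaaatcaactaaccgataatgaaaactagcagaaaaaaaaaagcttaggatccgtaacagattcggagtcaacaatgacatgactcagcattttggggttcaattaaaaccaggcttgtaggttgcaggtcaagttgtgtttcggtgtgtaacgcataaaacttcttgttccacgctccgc
EMD, chrX:154379045-154379344, plus strand: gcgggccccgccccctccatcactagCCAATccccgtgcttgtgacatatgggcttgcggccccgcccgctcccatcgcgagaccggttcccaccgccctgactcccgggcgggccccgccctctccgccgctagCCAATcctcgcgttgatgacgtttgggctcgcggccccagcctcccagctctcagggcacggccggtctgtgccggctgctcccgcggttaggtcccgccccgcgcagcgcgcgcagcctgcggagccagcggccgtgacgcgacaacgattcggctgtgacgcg
Of the 16 windows, 9 held a CHR match (TTTGAA or TTTAAA), 8 a CCAAT match and 1, of LMNA, an E2F match (TTTCCCGC or TTTCGCGC or TTTGCCGC or TTTGGCGC). Over all 35116 windows, 24% held a CHR match, 34.6% a CCAAT match and 3.31% an E2F match. Windows of the same gene are not independent of each other. By gene, 7 of the 8 had a CHR match in some window, all but EMD. Among these 7 were LMNA, LMNB2, SUN2 and HMGB1, whose response was not called as different between oxygen levels. A gene with more windows has more chances of a match, and the share of all genes with a match was not computed. The 24% of windows is therefore no measure for the count of 7 genes. Counted from the start site, the LMNB1 window printed holds a CHR match at −225 and the LBR window one at −156. The TMPO window holds a CHR match at −114 and CCAAT matches at −47 and −15, and the EMD window holds CCAAT matches at −224 and −115 and no CHR match. A second LMNB1 window, for a start site further into the gene, has a CHR match at −191 and a CCAAT match at −138. No matches of different motifs overlapped, and a match is a string of letters, not a site shown to be bound.

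Library totals ran from 24958386 to 34313637 counted reads, with a median of 29621780. FDX2 itself had 2 to 13 counts per library, with 2 to 6 in the 20% O2 + Doxy libraries and 4 to 13 in the 20% O2 wo Doxy libraries, and 70.9% of its exonic bases are shared with the annotated genes AC011511.1 and AC011511.4. It was too low to be tested, and the loss of FDX2 could not be checked on these counts. Of the markers of the cell line, KRT8, KRT18, PAX8 and VIM were counted in every library, while EPCAM had 0 to 3 counts and MUC16 0. The leukocyte markers PTPRC, CD3E and CD68 and the endothelial marker PECAM1 had at most 7 counts per library, whereas CDH5, another endothelial marker, had 656 to 1412. In 3 libraries the counts leaned to GC-rich transcripts: 20% O2 + Doxy replicate 1, 3% O2 + Doxy replicate 3 and 3% O2 wo Doxy replicate 2. The lean was computed on tested genes with a mean log2 CPM above 2, each taken relative to its mean over the 12 libraries. It is the median log2 level of the 2783 of them richest in GC (from 55.2% GC) minus that of the 2783 poorest (up to 41.5%). The lean was 0.371, 0.428 and 0.391 in these 3 libraries and between −0.325 and 0.118 in the other 9. The values that touch the 10 genes are given beside the results, as a GC correction (removal of each library's trend of log2 level against GC content) or as values without those 3 libraries.

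After FDX2 loss at 20% O2, 9 of the 10 genes fell. LMNB1 fell by 1.19 on the log2 scale (SE 0.0591), followed by HMGB2, TMPO, SUN2 and LBR with decreases of 0.70 to 0.86, HMGB1, LMNB2 and LMNA with 0.52 to 0.58, and SUN1 with 0.22. EMD was not called (log2 fold change −0.05, 95% interval −0.31 to 0.22). Of all 16891 genes tested, 17.7% fell at the same threshold, an adjusted p under 0.05 in edgeR's quasi-likelihood test. The replicates with and without Doxy did not overlap for 9 of the 10 genes, against 52.3% of all genes tested. The median log2 fold change of the 10 genes was −0.64, and that of all genes was 0.01. Poly(A) RNA was taken per sample, so that less RNA of a gene per cell and fewer cells making it cannot be told apart.

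**Figure D1:**
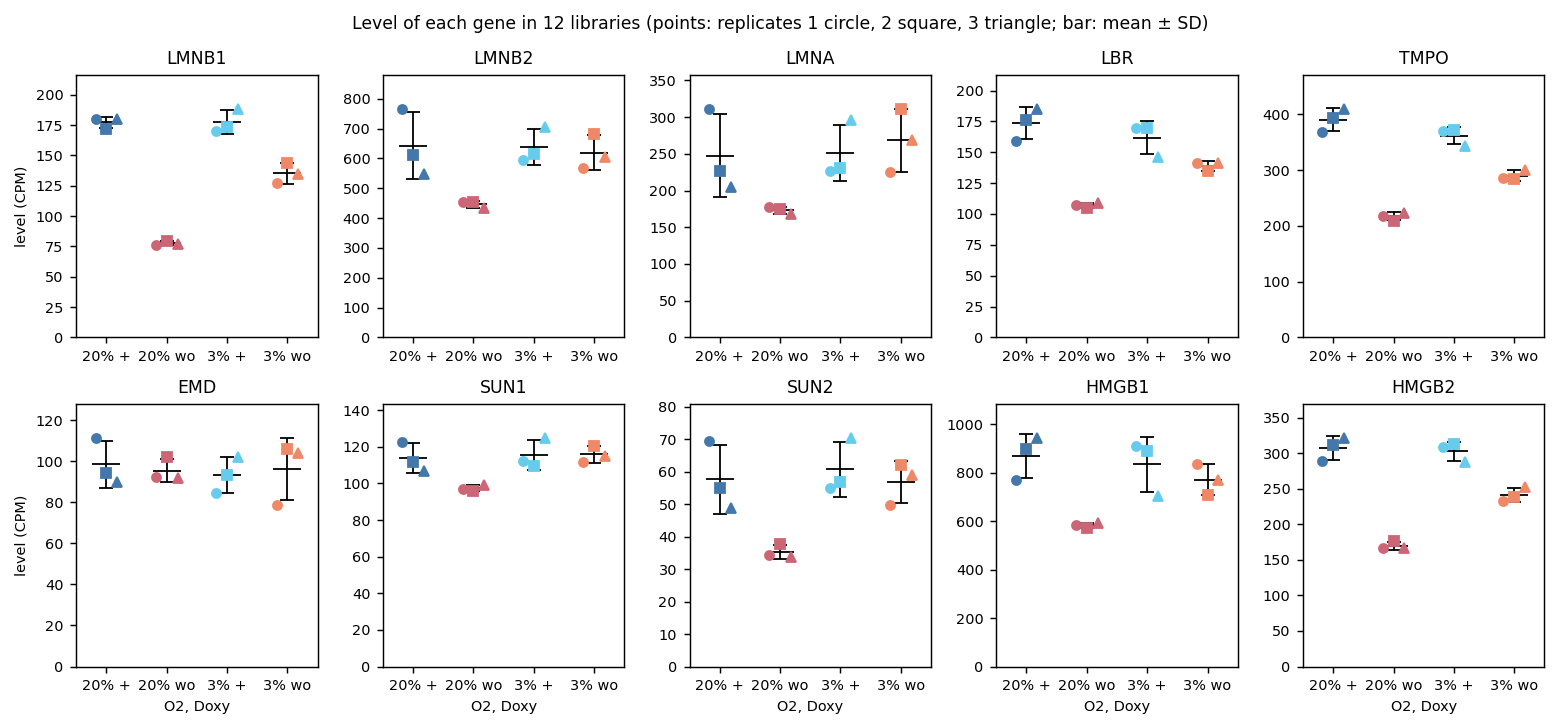
Level of each gene in CPM (vertical axis, from 0) in the 12 libraries, grouped by oxygen and Doxy. Points are libraries and bars the mean ± SD of 3; the 3 libraries without Doxy at 20% O2 lie below the other 9 for all genes shown but EMD.

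LMNB1 (ENSG00000113368, chr5:126776623-126837020, plus strand, GRCh38) encodes lamin B1. Its level, in CPM (counts scaled to the same library total), was 180, 172 and 180 in the 20% O2 + Doxy replicates 1, 2 and 3 and 76.6, 79.7 and 77.1 in the 20% O2 wo Doxy replicates. At 3% O2 it was 170, 174 and 189 with Doxy and 127, 144 and 135 without. Both FDX2-deficient groups lay below their Doxy groups without overlap, and the group at 20% O2 was the lowest of the 4. The fold change was 0.439 at 20% O2 (adjusted p = 2.95e-07) and 0.761 at 3% O2 (log2 −0.39, SE 0.0583, adjusted p = 0.0028). Among all tested genes, 0.491% had a more negative log2 fold change than LMNB1 at 20% O2.

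LMNB2 (ENSG00000176619, chr19:2427638-2456996, minus strand), which encodes lamin B2 and shares 5.58% of its exonic bases with TIMM13 and MIR7108, stood at 766, 612 and 549 CPM with Doxy and 452, 453 and 433 without at 20% O2. The 3% O2 groups overlapped, at 595, 614 and 706 CPM with Doxy and 569, 683 and 603 CPM without. The decrease at 20% O2 was 0.52 on the log2 scale (adjusted p = 0.00452), and at 3% O2 the gene was not called (−0.05, 95% interval −0.30 to 0.20). With the GC correction the decrease at 20% O2 was 0.34 (adjusted p = 1.06e-05), and at 3% O2 LMNB2 then passed the threshold at −0.13 (adjusted p = 0.0295).

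LMNA (ENSG00000160789, chr1:156082573-156140089, plus strand), the source of lamins A and C, was measured at 311, 227 and 205 CPM with Doxy and 177, 175 and 168 without at 20% O2. The 3% O2 libraries gave 227, 231 and 295 CPM with Doxy and 225, 311 and 268 CPM without. Its highest values were in the libraries that leaned to GC-rich transcripts. The decrease at 20% O2 was 0.52 (SE 0.162, adjusted p = 0.0292). It was 0.33 and not called without replicate 1 of 20% O2 + Doxy (adjusted p = 0.0845), it was called at −0.33 without all 3 GC-leaning libraries (adjusted p = 0.00399), and it was called at −0.32 with the GC correction (adjusted p = 0.000802). The call was also lost without any one of the 20% O2 wo Doxy libraries, at adjusted p between 0.0514 and 0.0642, and with a replicate block in the fit to all 12 libraries (adjusted p = 0.0601). At 3% O2, LMNA was at 0.10 (95% interval −0.26 to 0.45, not called).

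Ratios of the lamins to each other were compared within libraries. The log2 ratio of LMNB1 to LMNA counts was −0.46 ± 0.31 (SD, n = 3) with Doxy and −1.16 ± 0.05 without at 20% O2, and −0.49 ± 0.14 and −0.98 ± 0.14 at 3% O2. The log2 ratio of LMNB1 to LMNB2 went from −1.84 ± 0.24 to −2.52 ± 0.04 at 20% O2 and from −1.84 ± 0.05 to −2.19 ± 0.05 at 3% O2. In each of these comparisons the replicates did not overlap, and the two-sided exact permutation p was 0.1, the smallest that 3 against 3 libraries allow (0.182 after adjustment over 20 ratio comparisons). The ratio of LMNB2 to LMNA differed by −0.02 at 20% O2 (exact permutation p = 0.8), a difference whose sign turned without 20% O2 + Doxy replicate 2. Ratios of raw counts within a library do not depend on the scaling of libraries. They were not corrected for GC content, however, which is 51.1% for LMNB1 and 61.5 and 61.4% for LMNA and LMNB2. The GC lean of a library can therefore enter the ratios with LMNB1. The same limit holds for the ratios of SUN1 to SUN2 and HMGB2 to HMGB1 below.

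LBR (ENSG00000143815, chr1:225401502-225428925, minus strand), the lamin B receptor and a sterol reductase, was at 160, 176 and 185 CPM with Doxy and 107, 105 and 109 without at 20% O2. Under 3% O2, LBR was at 169, 170 and 146 CPM with Doxy and 141, 134 and 142 CPM without. The groups did not overlap at either oxygen level. The decrease was 0.70 at 20% O2 (SE 0.0707, adjusted p = 2.86e-05). At 3% O2 the log2 fold change was −0.22 and was not called (adjusted p = 0.089). It was called without 3% O2 + Doxy replicate 3 (−0.29, adjusted p = 0.0205), with the GC correction (−0.16, adjusted p = 0.0159), without the 3 GC-leaning libraries (−0.28, adjusted p = 0.00402) and by DESeq2 (−0.24, adjusted p = 0.0224).

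TMPO (ENSG00000120802, chr12:98515512-98550379, plus strand) encodes the lamina-associated polypeptides LAP2, some of which sit in the membrane and one of which, LAP2 alpha, in the nucleoplasm. Counts per gene do not separate these isoforms, and 8.30% of its exonic bases are shared with the antisense gene TMPO-AS1. TMPO stood at 368, 393 and 410 CPM with Doxy and 218, 210 and 224 without at 20% O2, and at 369, 371 and 344 with and 286, 285 and 301 without Doxy at 3% O2. It fell by 0.85 at 20% O2 (SE 0.0545, adjusted p = 1.22e-06) and by 0.32 at 3% O2 (SE 0.0542, adjusted p = 0.00627), with no overlap of the groups in either case.

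EMD (ENSG00000102119, chrX:154379197-154381523, plus strand), which encodes emerin, was at 111, 94.4 and 89.7 CPM with Doxy and at 92.2, 102 and 91.9 without at 20% O2. The 3% O2 values were 84.7, 93.0 and 102 with Doxy and 78.8, 106 and 104 without. The 4 groups overlapped, and EMD was called in none of the 5 comparisons. With the GC correction its difference between 3% and 20% O2 without Doxy was −0.23 and called (adjusted p = 0.0359), in place of 0.01.

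SUN1 (ENSG00000164828, chr7:816615-896435, plus strand) was at 123, 111 and 107 CPM with Doxy and 97.2, 95.8 and 99.2 without at 20% O2, and at 112, 109 and 125 with and 112, 121 and 115 without at 3% O2. It fell by 0.22 at 20% O2 (SE 0.0664, adjusted p = 0.0226), the smallest called decrease among the 10 genes, and was at 0.00 at 3% O2 (95% interval −0.14 to 0.15). SUN2 (ENSG00000100242, chr22:38734725-38794143, minus strand) was at 69.4, 55.0 and 48.7 CPM with Doxy and 34.3, 37.6 and 33.7 without at 20% O2. At 3% O2 it was at 54.9, 56.8 and 70.4 with Doxy and 49.6, 62.1 and 58.9 without. SUN2 fell by 0.71 at 20% O2 (SE 0.138, adjusted p = 0.00232) and was at −0.09 at 3% O2 (95% interval −0.39 to 0.21). The log2 ratio of SUN1 to SUN2 was 0.99 ± 0.16 with Doxy and 1.47 ± 0.11 without at 20% O2, with no overlap (exact permutation p = 0.1). Other genes share 15.6% of the exonic bases of SUN1 and 24.6% of those of SUN2, so that both counts are uncertain where reads could go to a neighbour.

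HMGB1 (ENSG00000189403, chr13:30456704-30617597, minus strand) was at 769, 899 and 944 CPM with Doxy and 585, 571 and 593 without at 20% O2, and at 911, 889 and 703 with and 835, 707 and 771 without at 3% O2. It fell by 0.58 at 20% O2 (SE 0.104, adjusted p = 0.00138) and was at −0.11 at 3% O2 (95% interval −0.34 to 0.11), where the groups overlapped. HMGB1 has many processed pseudogenes: of 48 in the table, 17 had a count, and together they held counts equal to 16.6 to 26.4% of those of HMGB1. The HMGB1 level is therefore uncertain. The pseudogenes summed to 176 ± 9.71 CPM (SD, n = 3) in the 20% O2 + Doxy libraries and 110 ± 5.97 CPM in the 20% O2 wo Doxy libraries, and HMGB1 with its pseudogenes to 1047 ± 96.8 and 693 ± 12.03 CPM.

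HMGB2 (ENSG00000164104, chr4:173331695-173335125, minus strand), the paralogue found mostly in dividing cells, was at 289, 311 and 321 CPM with Doxy and 167, 176 and 166 without at 20% O2. At 3% O2 it was at 308, 312 and 287 with Doxy and 233, 239 and 252 without. The groups did not overlap at either oxygen level, and HMGB2 fell by 0.86 at 20% O2 (SE 0.0563, adjusted p = 1.44e-06) and by 0.33 at 3% O2 (SE 0.0560, adjusted p = 0.00623). The log2 ratio of HMGB2 to HMGB1 was lower without Doxy by 0.28 at 20% O2, at −1.50 ± 0.08 with and −1.78 ± 0.07 without, again without overlap (exact permutation p = 0.1).

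At 3% O2, 3 of the 10 genes fell after FDX2 loss (LMNB1, HMGB2 and TMPO) and none rose, against 3.11% of all tested genes that fell. Their replicates and those of LBR did not overlap between the groups, 4 of 10 genes against 24.6% of all genes. The median log2 fold change of the 10 genes was −0.10 (all genes 0.04). This count depended on the fit. With the 3% O2 libraries fitted alone, LMNB1 was the 1 gene called, and TMPO and HMGB2 had adjusted p of 0.0591 and 0.0597. Calls over the whole table fell as well in that fit, to 1.36% of all genes either way, against 7.31% in the main fit.

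**Figure D2:**
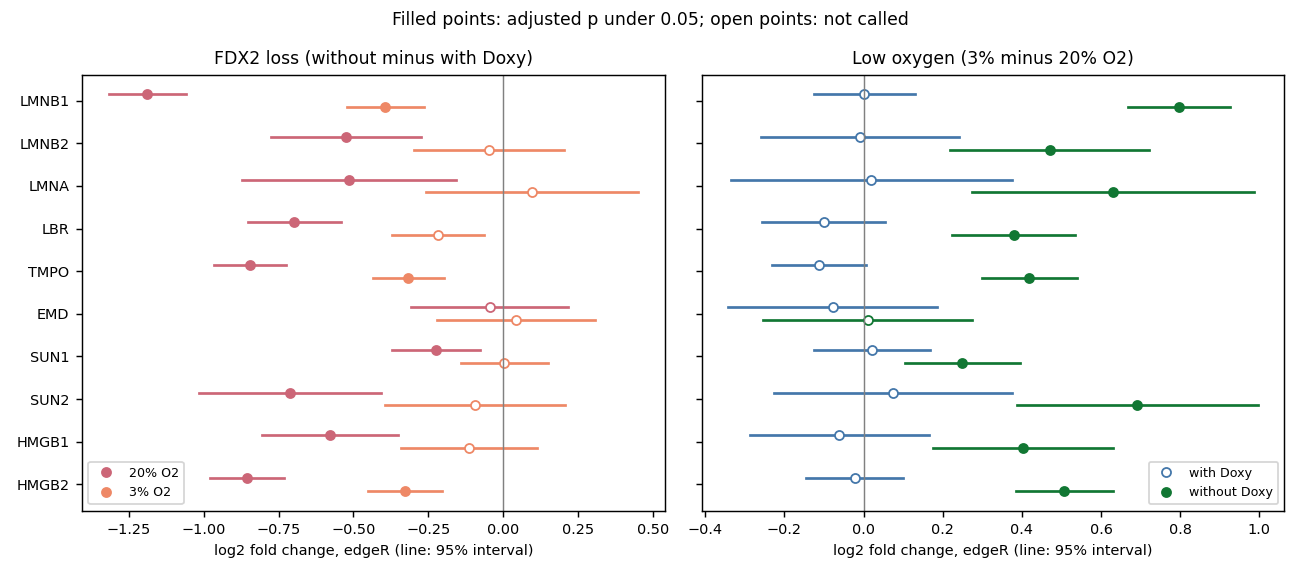
Log2 fold change of each gene (horizontal axis) with its 95% interval from edgeR, for FDX2 loss at 20% and 3% O2 (left) and for 3% against 20% O2 with and without Doxy (right). Filled points passed an adjusted p of 0.05; at 20% O2 the 9 called genes lie at −0.22 or lower, at 3% O2 LMNB1, TMPO and HMGB2 are called, and with Doxy no gene responded to oxygen with a call.

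Low oxygen was also compared directly. In FDX2-expressing cells (with Doxy), 3% against 20% O2 gave no call among the 10 genes by edgeR or DESeq2, and no gene had an unadjusted edgeR p under 0.05 (lowest for TMPO, 0.0632). The log2 differences lay between −0.11 and 0.07, and 2.02% of all tested genes were called. The 95% interval for LMNB1 was −0.13 to 0.13, and that for LMNA, the widest of the 10, was −0.34 to 0.37. In FDX2-deficient cells (without Doxy), 9 of the 10 genes were higher at 3% than at 20% O2, against 13.9% of all tested genes. LMNB1 was higher by 0.80 (SE 0.0588, adjusted p = 1.07e-05), SUN2 by 0.69, LMNA by 0.63, HMGB2 by 0.51, LMNB2 by 0.47, TMPO by 0.42, HMGB1 by 0.40, LBR by 0.38 and SUN1 by 0.25, and EMD was at 0.01. The same 9 genes did not overlap between these groups, against 49.4% of all genes. This comparison shares its 20% O2 wo Doxy libraries with the comparison at 20% O2, so that the counts of 9 are not independent. Without 3% O2 wo Doxy replicate 2, 6 genes were called, as LMNB2, LMNA and SUN1 then missed the threshold (adjusted p = 0.0555, 0.0705 and 0.0760). The condition means of the GC lean, given below, lay furthest apart in this comparison. With the GC correction the 9 genes were still called, with smaller differences for SUN2 (0.44), LMNA (0.35) and LMNB2 (0.20) and larger ones for HMGB1 (0.61), LBR (0.59) and TMPO (0.57), while LMNB1 was at 0.77.

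Whether FDX2 loss had a different effect at the 2 oxygen levels was tested as an interaction, the log2 fold change at 3% minus that at 20% O2. It was called for 4 of the 10 genes, all with a smaller decrease at 3% O2: LMNB1 at 0.80 (SE 0.0825, adjusted p = 0.000531), TMPO at 0.53 (SE 0.0766, adjusted p = 0.00281), HMGB2 at 0.53 (SE 0.0791, adjusted p = 0.00334) and LBR at 0.48 (SE 0.0996, adjusted p = 0.0165). Of all tested genes, 3.21% were called in this direction. The other 6 genes were not called, with estimates of 0.62 for SUN2 (adjusted p = 0.0837), 0.61 for LMNA (0.134), 0.48 for LMNB2 (0.101), 0.46 for HMGB1 (0.0839), 0.23 for SUN1 (0.170) and 0.09 for EMD (0.789). All 10 estimates were above 0, as were 9498 of all 16891 genes tested, with a median of 0.50 (all genes 0.05). EMD was below 0 with the GC correction (−0.13) and without the 3 GC-leaning libraries (−0.02). SUN2 and LMNA had larger estimates than TMPO, HMGB2 and LBR and standard errors of 0.194 and 0.228, an order that turned with the GC correction (SUN2 0.38 and LMNA 0.34, against TMPO 0.65, LBR 0.63 and HMGB2 0.56). LBR was not called without any one of the 20% O2 wo Doxy libraries (adjusted p between 0.0708 and 0.0801) or with a replicate block (adjusted p = 0.0534).

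Among replicates, the 4 genes with GC-rich transcripts were higher and the 3 with GC-poor transcripts lower the more a library leaned to GC-rich transcripts, while the genes between them went either way. GC content, taken from the longest annotated transcript of a gene, was 60.0 to 61.5% for LMNA, LMNB2, SUN2 and EMD. It was 49.3 to 51.1% for LMNB1, HMGB2 and SUN1, and 37.8 to 41.4% for TMPO, HMGB1 and LBR. For each gene the deviation of a library from its condition mean was compared with the GC lean of that library, taken relative to its condition in the same way. Over 12 libraries Pearson's r was 0.964 for LMNB2, 0.960 for LMNA, 0.946 for SUN2, 0.937 for SUN1, 0.770 for EMD and 0.694 for LMNB1, and it was negative for LBR (−0.981), HMGB1 (−0.974), TMPO (−0.864) and HMGB2 (−0.700). These values are descriptions, since genes of like GC content share their libraries. LMNA ranged over 0.61 log2 units within conditions, from −0.25 to 0.35, while TMPO ranged over 0.15. The conditions differed in the lean too, with means of −0.01 (20% O2 + Doxy), −0.24 (20% O2 wo Doxy), 0.06 (3% O2 + Doxy) and 0.18 (3% O2 wo Doxy). Its part in the differences between conditions, apart from what the correction below removes, was not tested.

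**Figure D3:**
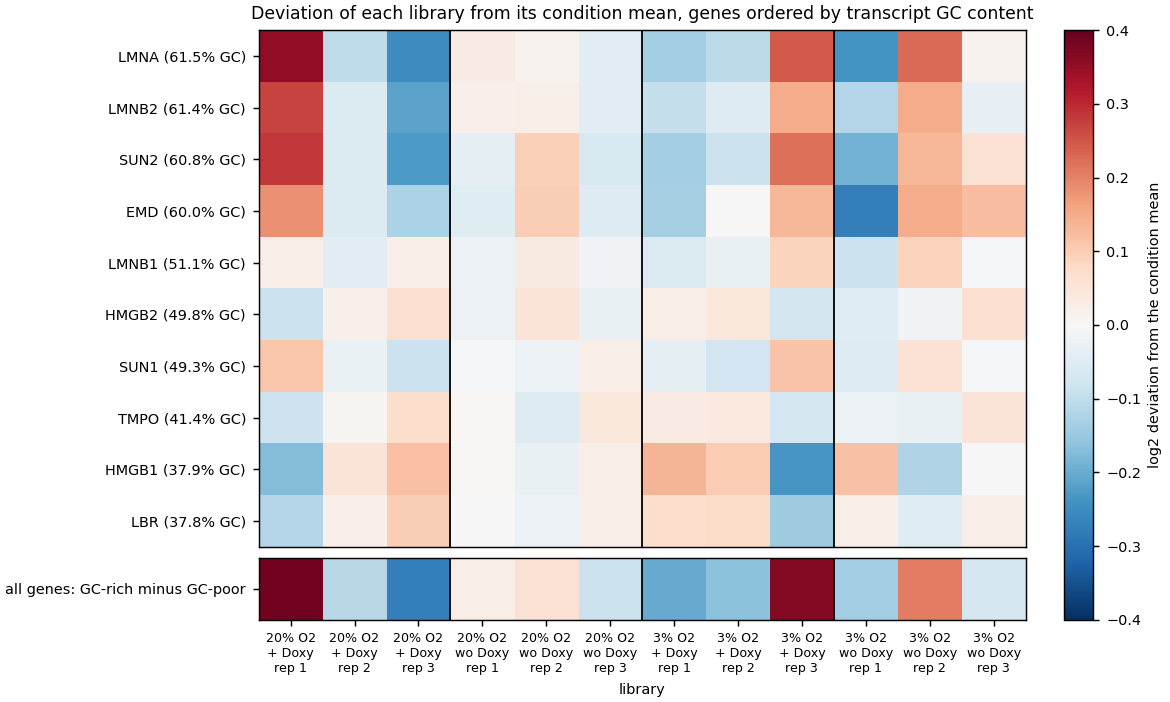
Log2 deviation of each library from its condition mean (colour, red above and blue below) for the 10 genes, ordered from GC-rich (top) to GC-poor (bottom) transcripts, with the GC lean of all genes in the bottom row. The GC-rich genes are red and LBR and HMGB1 blue in 20% O2 + Doxy replicate 1, 3% O2 + Doxy replicate 3 and 3% O2 wo Doxy replicate 2.

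With the GC correction, the 9 genes remained called at 20% O2, in a fit that called 44.3% of all tested genes either way against 35.3% without it. At 3% O2, 5 genes were called, as LMNB2 and LBR were added, against 14.6% of all genes (7.31% without the correction). The decreases of GC-rich genes became smaller (SUN2 −0.54, LMNB2 −0.34, LMNA −0.32) and those of GC-poor genes larger (TMPO −0.92, LBR −0.79, HMGB1 −0.67), while LMNB1 was at −1.20. For the difference of the responses, 8 genes were then called, as LMNB2 (0.21), LMNA (0.34), SUN2 (0.38) and HMGB1 (0.62) passed the threshold, and 16.1% of all genes were called against 7.29%. The first 3 passed it with smaller estimates than without the correction, and HMGB1 with a larger one. Without the 3 GC-leaning libraries, a setting chosen after the data were seen, 9, 5, 0 and 9 genes were called in the 4 pairwise comparisons in the order given above, and 9 genes, all but EMD, for the difference of the responses. In this fit, too, more calls were made over the whole table. Of all genes, 42.5%, 15.2%, 3.03% and 33.5% were called in the 4 pairwise comparisons in that order and 14.95% for the difference.

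Levels per transcript length (TPM, computed here from the union of exons) set the genes in an order. In the 20% O2 + Doxy libraries LMNB2 (437 ± 72.9 TPM, SD, n = 3), HMGB1 (418 ± 46.5) and HMGB2 (410 ± 24.6) were highest and lay within each other's spread. LMNB1 (181 ± 3.10) and EMD (180 ± 19.3) followed, also within their spread, then TMPO (168 ± 10.1), LMNA (131 ± 28.6) and LBR (122 ± 9.93). SUN1 (35.7 ± 2.30) and SUN2 (32.9 ± 5.81) were lowest. In the 20% O2 wo Doxy libraries LMNB1 was at 83.9 ± 1.18 TPM, below EMD (185 ± 9.46), TMPO (99.1 ± 4.36) and LMNA (97.2 ± 2.14) by more than their spread. In the 3% O2 wo Doxy libraries LMNB1 (137 ± 12.8) and LMNA (142 ± 27.0) were within each other's spread.

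Genes of the cell cycle were measured beside these. MKI67 fell by 1.37 at 20% O2 and by 0.59 at 3% O2, PCNA by 0.88 and 0.50, and TOP2A by 0.73 and 0.25, all with adjusted p under the threshold (0.0184 at the highest, for TOP2A at 3% O2). For the difference of the responses MKI67 was at 0.78, TOP2A at 0.48 and PCNA at 0.38, each called. These genes thus moved with LMNB1, TMPO and HMGB2, and whether the lamina genes changed beyond what a lower share of dividing cells gives was not tested. The 5 genes whose log2 CPM over the 12 libraries was most like that of LMNB1, out of 10789 genes averaging 5 CPM or more, were CPSF6, NCAPH, CENPA, KIF20A and SFRP1 (Pearson's r between 0.991 and 0.993). For HMGB2 they were ASPM, DHX9, RACGAP1, CTNNB1 and KIF11 (r between 0.991 and 0.994). For LMNA they were JUN, RPS6KA4, MBD3, PPM1F and CYREN (r between 0.991 and 0.996), with a transcript GC content from 36.0% (CYREN) to 64.7% (RPS6KA4).

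Other genes of the nuclear envelope were taken from lists of partners. Values of partner genes, here and below, are from the main fit without the GC correction. The part of the GC lean in them was not tested. Of 29 nucleoporins tested, the subunits of the nuclear pore, 22 fell at 20% O2 and none rose (median −0.33), against 17.7% of all tested genes that fell. NUP37 fell by 0.56, NUP62 by 0.47 and POM121 by 0.46. Transcript GC content was 58.4% for NUP62 and 57.7% for POM121, and other genes share 21.1% and 18.9% of their exonic bases. At 3% O2, 5 of the 29 fell (NDC1, NUP133, NUP153, NUP155 and TPR), against 3.11% of all genes. For the difference of the responses edgeR called 0 of the 29, against 7.29% of all genes either way. An unadjusted edgeR p under 0.05 was reached by 12, a count without a share of all genes to set it against. Of 12 LEM-domain and other inner membrane proteins, 3 fell at 20% O2 (NRM by 0.57, NEMP2 by 0.50 and ANKLE2 by 0.32) and NEMP1 rose by 0.31. Among 10 partners of the LINC complex and of torsins, TOR1A (by 0.37), the nesprin gene SYNE2 (by 0.27) and TOR1AIP1 (by 0.17) fell, and the nesprin gene SYNE1 rose by 0.48. In lists this small, 3 of 12 and 3 of 10 genes lie near the 17.7% of all genes that fell. SUN3 was also called higher, from 0 to 2 counts per library with Doxy to 16 to 21 counts without, a level at which the size of the fold is not determined.

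The counts that follow stand against the same 17.7%. Of 6 genes that process lamins, FNTB, a farnesyltransferase subunit, fell by 0.55, NARF, which binds prelamin A, by 0.34 and the methyltransferase gene ICMT by 0.28. FNTB was at 6.20 ± 0.86 CPM with and 4.23 ± 0.48 CPM without Doxy at 20% O2. Its count is uncertain, as 42.1% of its exonic bases are shared with the annotated gene CHURC1-FNTB. FNTA, the partner subunit of FNTB, rose by 0.18, and ZMPSTE24, the protease that cleaves prelamin A, was at 0.06 and not called. The 3 genes of HP1 proteins, which bind silent chromatin and LBR, all fell (CBX3 by 0.56, CBX1 by 0.40 and CBX5 by 0.22). Of 8 other HMG genes, 5 fell at 20% O2, with HMGB3 at −0.89, HMGN2 at −0.59 and HMGA1 at −0.50, and HMGN4 rose by 0.17. HMGB3 fell from 123 ± 10.4 to 66.1 ± 1.91 CPM, close to the fold change of HMGB2, and HMGB3 and HMGN2 were the 2 of these genes called for the difference of the responses (0.60 and 0.42). Of 3 receptor genes for extracellular HMGB1, AGER, which encodes RAGE, had enough counts to be tested. It fell by 0.86 at 20% O2, from 5.38 ± 0.99 to 2.97 ± 0.46 CPM, and was at 0.18 at 3% O2 (not called). The difference of its responses was called at 1.03 (adjusted p = 0.0248 in edgeR). AGER had 76 to 203 counts per library and a transcript GC content of 58.9%. The part of the GC lean in its values was not tested. TLR2 and TLR4 had at most 2 counts in any library.

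**Figure D4:**
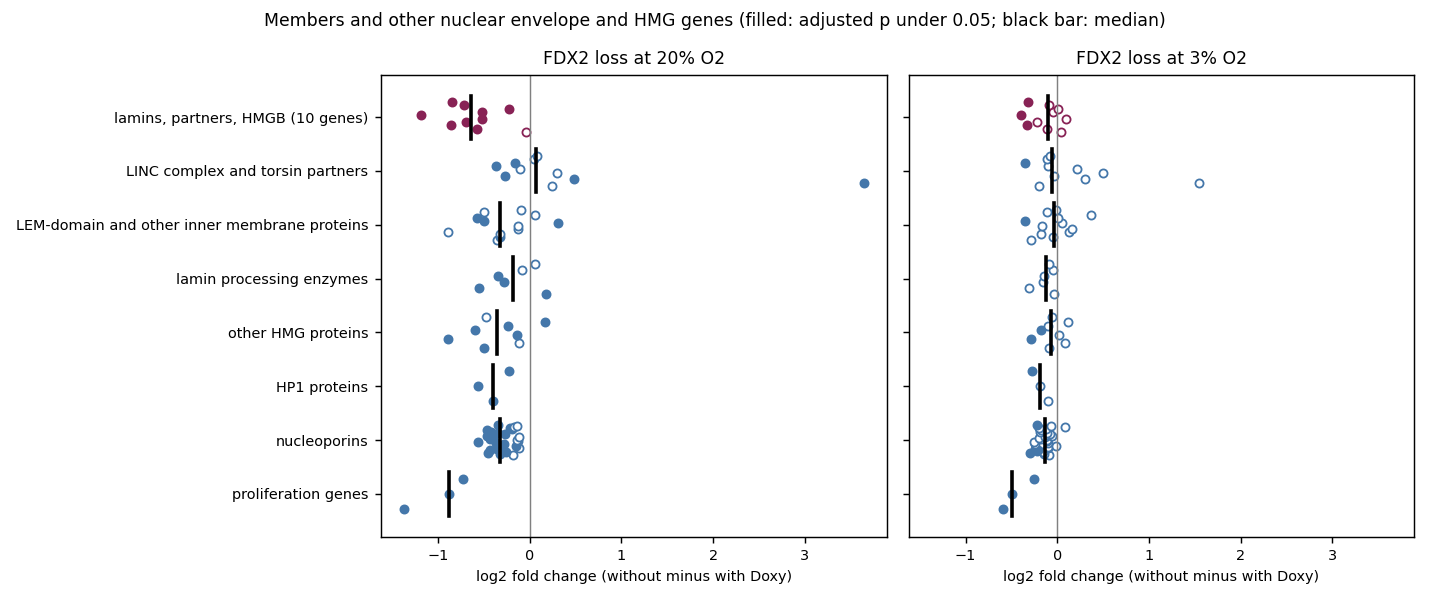
Log2 fold change after FDX2 loss at 20% O2 (left) and 3% O2 (right) for the 10 genes (top row, purple) and for other genes of the nuclear envelope, HMG and HP1 families and the cell cycle (blue). Each point is a gene, filled where its adjusted p was under 0.05, and the black bar is the median; the point far to the right is SUN3, which has 0 to 2 counts per library with Doxy at 20% O2.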

How the data were processed

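RNA-seq was carried out by the authors on poly(A) RNA of FDX2-iKO ES2 cells, with 12 libraries in 4 conditions of 3. Per the labels, reads were aligned with STAR and counted per gene with featureCounts on GRCh38. The deposited values are raw read counts, without normalization or pooling. How multi-mapping reads and strand were handled, which annotation was used and the tool versions are not given in the sources used here. All 58735 identifiers are found in GENCODE 29. Counts ran from 24958386 to 34313637 per library, with at least 1038 counts per library for each of these genes. The spread between replicates was unequal. For LMNA the SD was 4.93 CPM in the 20% O2 wo Doxy libraries and 56.3 CPM in the 20% O2 + Doxy libraries, and for LBR 1.81 and 13.0 CPM. The main fit takes a common spread per gene over the 4 conditions. The common biological coefficient of variation over all genes was 16.3%.

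Counts were filtered with edgeR's filterByExpr (minimum count 10, minimum total 15), scaled by TMM and fitted with edgeR's quasi-likelihood model with 4 condition means over all 12 libraries (8 residual degrees of freedom). Genes were called at a Benjamini-Hochberg adjusted p under 0.05 over 16891 genes. Levels in CPM use the TMM-scaled totals. Ratios were compared by two-sided exact permutation tests. R 4.3.3, edgeR 4.0.16, limma 3.58.1, DESeq2 1.42.0, Python 3.11.15 and scipy 1.17.1 were used, and the steps were tested on simulated data. The GC correction takes each library's lowess trend (span 0.3, genes above a log2 CPM of 2) of log2 CPM against exonic GC content out as an offset.

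The members and the gene lists were chosen with earlier results of these data known. Named were the 10 genes in all 5 comparisons, MKI67, PCNA and TOP2A, FDX2, the 3 largest called increases and decreases of each partner list at 20% O2 and for the difference of the responses, and the 5 genes most like LMNB1, HMGB2 and LMNA. Genes named beyond this rule were chosen after their values were seen. A marker of the cell line from the fixed list is not reported here. Alternatives were DESeq2's size factors and Wald test, other filters, a replicate block, fits to the compared conditions alone, the GC correction and leaving out each library. As a check of pairing, the deviations of libraries from their condition means were compared by number, across genes. Between 20% O2 wo Doxy and 3% O2 wo Doxy all 3 correlations exceeded 0.1 (0.190 to 0.497), and this holds for no other pair of conditions. Libraries of different number gave −0.473 to 0.231 there. The 2 ranges overlap, so that a pairing by number was not established.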

Additional observations from a re-analysis of the deposited data

Results flagged for a closer look

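The response to FDX2 loss differed between 3% and 20% O2 by the test of the difference itself (edgeR's quasi-likelihood interaction over 12 libraries) for 4 of the 10 genes. The log2 difference, 3% minus 20% O2, was 0.80 for LMNB1, 0.53 for TMPO, 0.53 for HMGB2 and 0.48 for LBR, with adjusted p of 0.000531, 0.00281, 0.00334 and 0.0165. In each of them the decrease after FDX2 loss was larger at 20% O2 (LMNB1 −1.19 against −0.39, TMPO −0.85 against −0.32, HMGB2 −0.86 against −0.33 and LBR −0.70 against −0.22). With the GC correction the 4 differences were 0.81, 0.65, 0.56 and 0.63, and without the 3 libraries that leaned to GC-rich transcripts 0.77, 0.54, 0.54 and 0.49, all still called. LBR was not called with a replicate block (adjusted p = 0.0534) or without any one of the 20% O2 wo Doxy libraries (adjusted p between 0.0708 and 0.0801). The days in culture differ between the oxygen levels and cannot be told apart from oxygen.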

How the results depend on the processing

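Counts of genes called out of 10 (9, 3, 0, 9 and 4 for FDX2 loss at 20% and at 3% O2, for oxygen with and without Doxy, and for the difference of the responses) were the same with DESeq2's size factors, with no filter and with at least 10 counts in every library. For FDX2 loss at 3% O2 the count was 5 with the GC correction, 5 without the 3 GC-leaning libraries (added after the data were seen), 1 in the compared conditions alone, 0 with a replicate block there (adjusted p = 0.212 for LMNB1 and 0.255 for TMPO and HMGB2, with log2 fold changes of −0.42, −0.34 and −0.35), and 1 with both the GC correction and the block. The DESeq2 count there was 4, with LBR added. Over all genes, 7.31% were called at 3% O2 in the main fit, 14.6% with the GC correction and 15.2% without the 3 GC-leaning libraries. The share was 1.36% in the compared conditions alone, 0.00625% with the block there (1 of 16012 genes) and 2.25% with correction and block. DESeq2 called 5.89% of the genes with a count. For the difference of the responses the count was 8 with the GC correction, 8 with it and a replicate block in the fit to all 12 libraries, 7 with DESeq2 (LMNB2, SUN2 and HMGB1 added) and 9 without the 3 GC-leaning libraries. The shares of all genes in these fits were 16.1%, 12.3%, 5.69% and 14.95% in that order, against 7.29% in the main fit.

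Leaving out each library in turn gave 8 to 9 calls for FDX2 loss at 20% O2, 3 to 4 at 3% O2, 0 for oxygen with Doxy, 6 to 9 for oxygen without Doxy and 3 to 7 for the difference. The 7 calls came without 3% O2 + Doxy replicate 3 (LMNB2, SUN1 and SUN2 added), 6 without 20% O2 + Doxy replicate 3 (LMNB2 and SUN2 added), and 3 without any of the 20% O2 wo Doxy libraries. For oxygen without Doxy, 7 genes were called without any one of the 20% O2 wo Doxy libraries. Over all genes, these fits called 25.6 to 32.2% for FDX2 loss at 20% O2 and 3.35 to 9.27% at 3% O2. The shares were 1.09 to 2.24% for oxygen with Doxy, 13.4 to 24.4% without Doxy and 3.00 to 12.7% for the difference. The cause of the changes in these counts was not tested, beyond the fewer libraries in each fit.

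A replicate block in the fit to all 12 libraries gave 8, 3, 0, 9 and 3 calls, losing LMNA at 20% O2 (−0.51) and LBR for the difference (0.48). This fit called 30.1%, 4.00%, 1.29%, 19.0% and 3.64% of all genes in the same order. For 3% against 20% O2 without Doxy, where all same-number correlations exceeded 0.1, the block in the compared conditions alone kept all 9 calls. EMD turned direction with a call for FDX2 loss at 20% O2 with GC correction and block (0.10, adjusted p = 0.0482), and for oxygen without Doxy with the GC correction (−0.23) and with GC correction and block (−0.25, adjusted p = 0.0340). Leaving out 1 library turned the sign in 6 of the 20 ratio comparisons, in 5 of them for oxygen with Doxy and in the other for LMNB2 to LMNA after FDX2 loss at 20% O2 (−0.02, up to 0.0041); with all libraries these 6 differences were under 0.06 in size. For the difference of the responses no separate fit to the compared conditions exists, since it uses all 12 libraries.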

Other observations

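Among the partner genes, 2 were called for 3% against 20% O2 in FDX2-expressing cells, in which none of the 10 genes was called. They were 1 of 10 LINC complex and torsin partners and 1 of 6 genes that process lamins. The lists of 29 nucleoporins, 12 inner membrane, 8 HMG and 3 HP1 genes gave 0 calls. Of all tested genes 2.02% were called, so that counts this small do not set the partner genes apart. Both called genes were picked after their values were seen. SPAG4, a SUN-domain protein, was at 4.20 ± 1.11 CPM (SD, n = 3) in the 20% O2 + Doxy libraries and 16.8 ± 2.48 CPM in the 3% O2 + Doxy libraries (log2 1.99, SE 0.181, adjusted p = 0.000116 in edgeR), and it was higher at 3% O2 without Doxy as well (1.56). NARF went from 47.6 ± 3.97 to 72.7 ± 6.90 CPM with Doxy (0.61, adjusted p = 0.00185) and was higher by 0.81 without Doxy. SPAG4 was not called after FDX2 loss at either oxygen level (0.24 at 20% O2 and −0.20 at 3% O2), so that SUN1 and SUN2 fell at 20% O2 while SPAG4 gave no call.

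HMGB1P5, the HMGB1 pseudogene with the most counts, was at 95.2 ± 3.57 CPM with Doxy and 58.9 ± 2.01 CPM without at 20% O2 (log2 −0.69, adjusted p = 4.88e-05). Its difference of the responses was 0.42 (adjusted p = 0.0392 in edgeR), where HMGB1 itself was at 0.46 and not called (adjusted p = 0.0839). Which of these reads come from HMGB1 transcripts was not tested.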
